A study of Bos taurus with 7 samples.

Results

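Amino acid transporters are the membrane proteins through which the cells of an ovarian follicle take up and exchange free amino acids. Granulosa cells, the somatic cells that surround the oocyte, are joined to it by gap junctions and are known to import certain amino acids and pass them on. The 9 transporter genes described here belong to 5 solute carrier families (SLC1, SLC3, SLC6, SLC7 and SLC38). *SLC38A1*, *SLC38A2* and *SLC38A3* encode sodium-coupled carriers of small neutral amino acids and glutamine. *SLC7A5* and *SLC7A6* encode light chains that exchange large neutral or cationic amino acids and that reach the cell surface only when bound to the heavy chain, the product of *SLC3A2*. *SLC6A9* encodes the glycine transporter GLYT1, and *SLC1A4* and *SLC1A5* encode the neutral amino acid exchangers ASCT1 and ASCT2. The members were chosen by name, and the estimated counts and TPM of their RefSeq transcripts were added up per gene. All 9 were found among the 23704 genes with a matched transcript.

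RNA sequencing was performed on 7 libraries of bovine preantral follicles, of which 4 were primary follicles (PF, an oocyte with 1 complete layer of cuboidal granulosa cells) and 3 were early secondary follicles (SF, with more than 1 layer). All came from ovaries of Holstein Friesian dairy cows collected at an abattoir and were isolated mechanically with sieves. They were labelled as taken at the start point (T0). According to the study's methods, they rested for a short time in a medium with insulin, FSH and a glutamine source before lysis. Whole follicles were pooled for every library, so that oocyte and granulosa cell RNA were read as one, and the sources used here do not tell which animals entered a pool. The p-values therefore measure only the spread between these libraries, which may be technical.

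The libraries held 18788105 to 23764615 estimated counts. PF replicate 4, which the study removed as an outlier, was left out of the comparison of stages, and its values are given beside the others. Its stromal fibroblast score, the mean log2(TPM + 1) of 14 marker genes, was 5.91. It was 1.73 to 2.41 in PF replicates 1 to 3 and 1.99 to 2.64 in SF. The 21 oocyte markers scored 5.75 to 6.82 in PF replicates 1 to 3, 2.74 to 5.04 in SF and 3.42 in PF replicate 4, with no marker at 0 over the 6 libraries compared. The 19 granulosa markers scored 3.89 to 4.54, 5.24 to 5.68 and 4.94 in the same order. The labels also name each library with a number, which was below 40 for 3 libraries, namely 24 and 34 for the first 2 PF replicates and 26 for SF replicate 1. It was above 40 for the other 4, with 46 and 47 for PF replicates 3 and 4 and 48 and 49 for SF replicates 2 and 3. What that number stands for is not stated in the labels.

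No member of the transporter group passed the test between SF and PF across all genes. Of the 9 members, 7 received an adjusted p from DESeq2 and 0 of them fell below 0.05, against 2876 of all 15056 genes tested (19.1%), 8.14% higher and 11% lower in SF. At an unadjusted p below 0.05 the count was also 0, in DESeq2, in edgeR and in limma on log2(TPM + 1). These tests gave a p to 8, 7 and 6 members. Of all genes with a p, 4800 of 18742, 3845 of 14342 and 3724 of 13150 fell below 0.05 in the same order. In all 9 members the values of the 3 PF libraries overlapped those of the 3 SF libraries, whereas 32.7% of all genes tested had no overlap. The median log2 fold change of the 7 members was 1.41, and that of all genes tested was 0.02. The median of the members tested was 0.40 with the library number in the model and 0.47 with all 7 libraries. With a library left out, it ran from 0.35 without SF replicate 3 to 2.66 without PF replicate 3. That of all genes lay between -0.1 and 0.07 in these fits. In whole follicles, fewer cells of a type and less RNA per cell cannot be told apart.

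*SLC3A2* (the heavy chain CD98hc), *SLC38A2* and *SLC1A5* were the most abundant members in both stages by mean TPM (a level per transcript length, with the same sum in every library). *SLC3A2* was at 275, 261, 220 and 316 TPM in PF replicates 1 to 4 and at 185, 252 and 499 TPM in SF replicates 1 to 3. It ranked between place 296 and place 887 of all genes in every library. *SLC38A2* came before it by mean level in SF (351 against 312 TPM) and after it in PF (129 against 252 TPM), but the ranges of these neighbours overlapped in both stages. *SLC1A5* followed, at 76.6 TPM in PF and 48.3 TPM in SF. In PF its range did not overlap that of *SLC1A4*, the next in order (10.1 TPM), while in SF the next was *SLC7A5* (17.9 TPM) and the ranges overlapped. *SLC38A1* came sixth in both stages, and *SLC6A9*, *SLC7A6* and *SLC38A3* had means under 1 TPM in both.

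**Figure D1:**
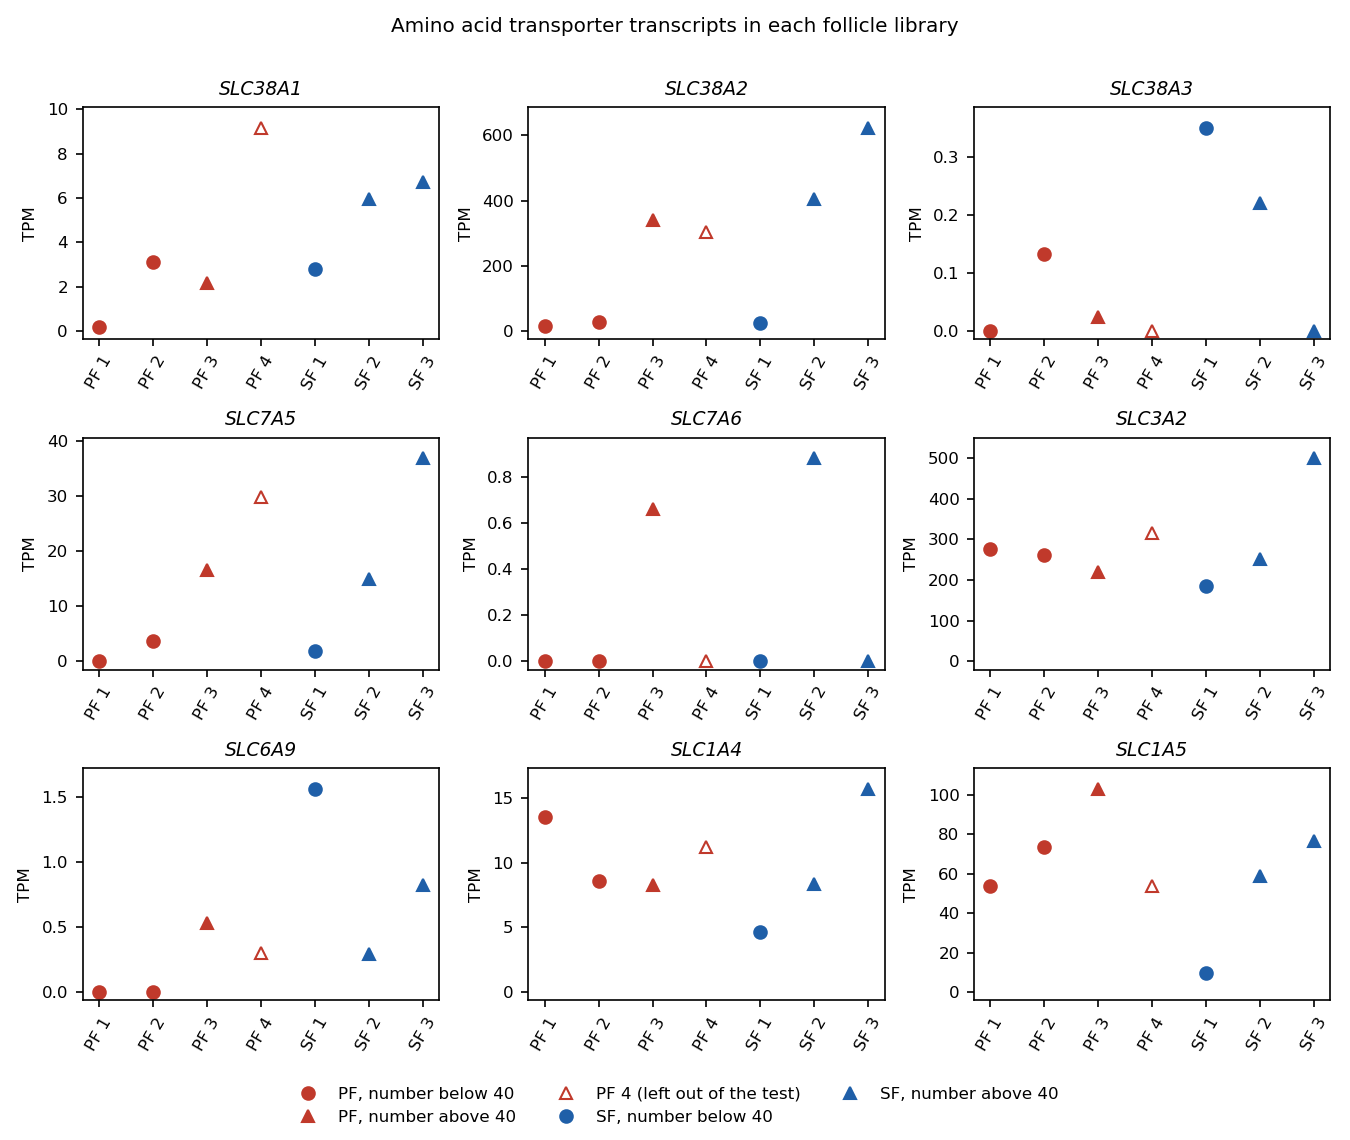
TPM of each of the 9 transporters in the 4 PF (red) and 3 SF (blue) libraries. Circles mark library numbers below 40, triangles those above 40 and the open triangle PF replicate 4. The stages overlap in every panel, while for *SLC38A2* and *SLC7A5* all circles lie below all triangles (at most 28.7 against at least 303 TPM for *SLC38A2*).

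The 3 members of the SLC38 family differed from each other far more in level than between stages. *SLC38A2*, the carrier SNAT2, was at 16.1, 28.7, 341 and 303 TPM in PF replicates 1 to 4 and at 23.7, 406 and 624 TPM in SF replicates 1 to 3. PF replicates 1 and 2 and SF replicate 1 were low and the other 4 libraries high, so that the SD was of the size of the mean in both stages (129 ± 184 TPM in PF and 351 ± 304 TPM in SF, SD, n = 3 each). The log2 fold change of SF over PF was 1.42 ± 1.59 (SE, adjusted p = 0.58 of DESeq2). The 1 PF library that was high decided this value. Without PF replicate 3 the log2 fold change was 4.21 (adjusted p = 0.00075 of DESeq2), a comparison in which both remaining PF libraries had numbers below 40 and 2 of the 3 SF libraries had numbers above 40.

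*SLC38A1*, the carrier SNAT1, was at 0.163, 3.12, 2.17 and 9.18 TPM in PF replicates 1 to 4 and at 2.79, 5.97 and 6.73 TPM in SF replicates 1 to 3. Its lowest SF value lay inside the PF range and the highest value of all was that of PF replicate 4. The log2 fold change was 1.55 ± 0.93 (SE, 95% interval -0.27 to 3.36, adjusted p = 0.24 of DESeq2), the smallest p among the members. Reads fell on 2 transcript models of the gene, and the second one, a predicted non-coding RNA, held 0% to 68.1% of the TPM in PF and 27.5% to 78.1% in SF. That model was at 0, 0.944, 0.101 and 6.25 TPM in PF replicates 1 to 4 and 0.769, 3.02 and 5.26 TPM in SF. The first model, a predicted mRNA, was at 0.163, 2.17, 2.06 and 2.93 TPM in PF and 2.02, 2.95 and 1.47 TPM in SF. The fold changes given for *SLC38A1* are those of both models summed. *SLC38A3*, the carrier SNAT3, was barely detected, with 0, 3, 1 and 0 counts in PF and 14, 9 and 0 counts in SF. These counts were too few for an adjusted p, and a count of 0 allowed a level of up to 0.0878 to 0.097 TPM.

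The heavy chain gene *SLC3A2* had the narrowest spread of the group relative to its mean in PF, at 252 ± 28.7 TPM, and a wider one in SF, at 312 ± 165 TPM (SD, n = 3 each). SF replicate 1 was the lowest and SF replicate 3 the highest of the 7 libraries, with all PF values between them. The log2 fold change was 0.43 ± 0.46 (SE, 95% interval -0.47 to 1.33, adjusted p = 0.56 of DESeq2), and it was -0.14 without SF replicate 3. Of its 2 transcript models, the more abundant one on average held 52.9% to 72.1% of the TPM in PF and 49.1% to 86.1% in SF. Its surplus over its partners was measured as the ratio of *SLC3A2* to the summed TPM of 6 light chain genes (*SLC7A5*, *SLC7A6*, *SLC7A7*, *SLC7A8*, *SLC7A10* and *SLC7A11*). The ratio was 8.44, 9.95, 6.12 and 9.27 in PF replicates 1 to 4 and 13.4, 7.03 and 9.99 in SF replicates 1 to 3. Heavy chain transcripts thus exceeded those of the light chains in every library, and the ratios of the stages overlapped.

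*SLC7A5*, the light chain LAT1 that carries leucine and other large neutral amino acids, was at 0, 3.68, 16.6 and 29.8 TPM in PF replicates 1 to 4 and at 1.9, 14.9 and 36.9 TPM in SF replicates 1 to 3. The 0 in PF replicate 1 allowed up to 0.051 TPM at this depth. As for *SLC38A2*, PF replicates 1 and 2 and SF replicate 1 were the 3 lowest libraries. The log2 fold change between the stages was 1.41 ± 2.26 (SE, adjusted p = 0.72 of DESeq2). *SLC7A6*, the light chain y+LAT2, had counts in 2 libraries alone, 62 in PF replicate 3 and 80 in SF replicate 2, and a 0 allowed up to 0.0274 to 0.0351 TPM. DESeq2 gave it no p between the stages, and no fold is given for the library numbers, since all 3 libraries below 40 were at 0. It was read from 1 of the 7 transcript models that RefSeq lists for it, so its level may be incomplete.

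*SLC6A9* was at 0, 0, 0.532 and 0.303 TPM in PF replicates 1 to 4 and at 1.56, 0.29 and 0.818 TPM in SF replicates 1 to 3. All 3 SF libraries had reads (86, 13 and 37 counts), as had 2 of the 4 PF libraries (24 and 12 counts), and the 2 zeros allowed up to 0.0651 and 0.064 TPM. The log2 fold change was 2.31 ± 2.13 (SE, adjusted p = 0.49 of DESeq2). Without PF replicate 3, which left no counts in the PF libraries compared, DESeq2 called it higher in SF (adjusted p = 0.0021), and no fold is given for a group at 0.

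The pair of exchangers *SLC1A4* and *SLC1A5* had the lowest log2 fold changes among the members that received an adjusted p. *SLC1A5* was at 53.5, 73.6, 103 and 53.5 TPM in PF replicates 1 to 4 and at 9.72, 58.8 and 76.4 TPM in SF replicates 1 to 3. SF replicate 1 lay far below every other library, and SF replicates 2 and 3 lay inside the PF range. The log2 fold change was -0.58 ± 0.73 (SE, 95% interval -2.01 to 0.85, adjusted p = 0.63 of DESeq2). *SLC1A4* was at 13.5, 8.59, 8.28 and 11.2 TPM in PF and at 4.62, 8.34 and 15.7 TPM in SF, with the lowest and the highest value both in SF. Its log2 fold change was 0.09 ± 0.57 (SE, 95% interval -1.02 to 1.20, adjusted p = 0.94 of DESeq2), and its sign changed with the library left out (-0.57 without SF replicate 3).

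**Figure D2:**
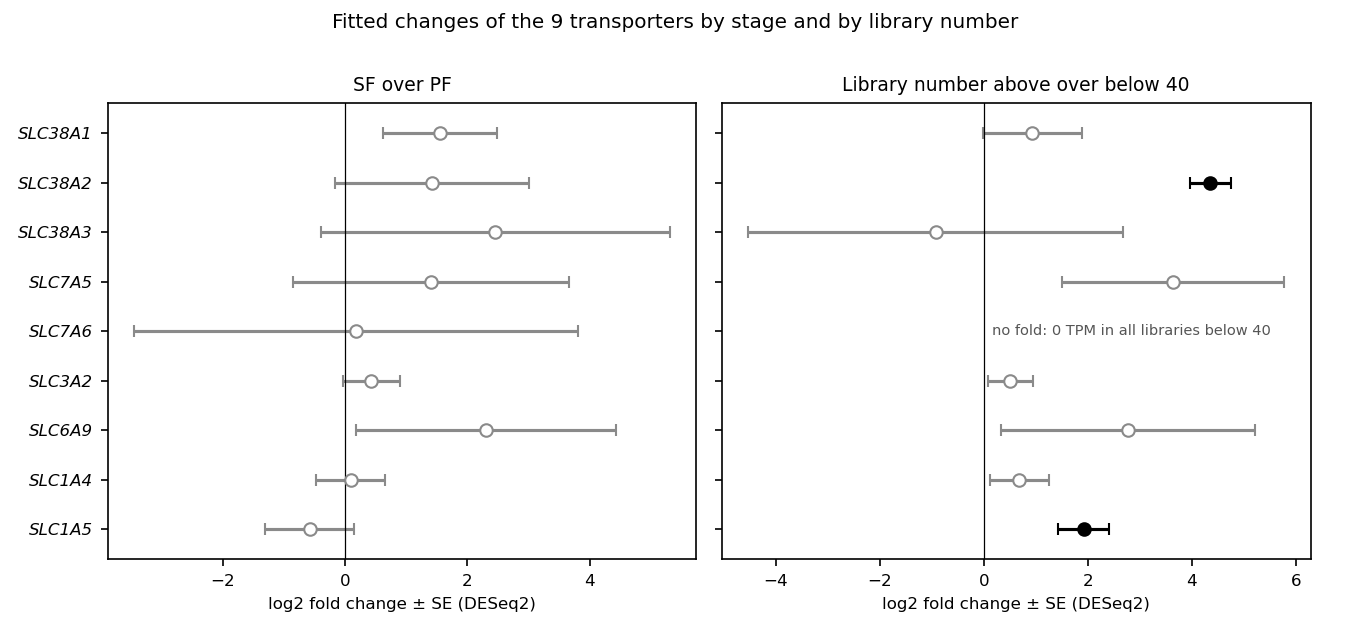
Log2 fold change ± SE (DESeq2, 6 libraries) of each transporter for SF over PF (left) and for library numbers above over below 40, adjusted for the stage (right). *SLC7A6*, at 0 in all libraries below 40, has no point on the right. Filled points have an adjusted p below 0.05, which 0 of the 7 members tested had for the stage, beside 19.1% of all genes. For the library number, 2 of 9 members had it, *SLC38A2* (4.36) and *SLC1A5* (1.92), beside 4.63% of all genes.

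The stage comparison was also read within the library numbers. Below 40, log2(TPM + 1) of SF replicate 1 minus the mean of PF replicates 1 and 2 was 0.13 for *SLC38A2*, 0.42 for *SLC7A5*, 0.79 for *SLC38A1*, -0.53 for *SLC3A2*, -1.07 for *SLC1A4* and -2.57 for *SLC1A5*. Above 40, the mean of SF replicates 2 and 3 minus PF replicate 3 was 0.56, 0.48, 1.21, 0.69, 0.43 and -0.61 in the same order. *SLC3A2* and *SLC1A4* thus had opposite signs in the 2 strata, each with a single library on one side and without a test. With the library number as a covariate, DESeq2 called 1 of 9 members between the stages, against 16.4% of all 17910 genes tested. This was *SLC1A5*, lower in SF with a log2 fold change of -1.60 ± 0.49 (SE, adjusted p = 0.011 of DESeq2). That call rested on SF replicate 1, without which the value was -0.69 (adjusted p = 0.51 of DESeq2). In the same model the log2 fold change of *SLC38A2* for the stage was 0.40 ± 0.40 (SE, adjusted p = 0.59 of DESeq2).

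With the stage in the model, *SLC38A2* and *SLC1A5* were higher in the libraries with numbers above 40. The coefficient of the library number, read after the values had been seen, was called for 2 of 9 members, both higher above 40, against 881 of all 19009 genes tested (4.63%), of which 3.05% were higher above 40 and 1.58% lower. For *SLC38A2* the log2 fold change was 4.36 ± 0.40 (SE, adjusted p = 8.9e-25 of DESeq2), from 22.8 ± 6.32 TPM below 40 to 457 ± 148 TPM above it (SD, n = 3 each). The 3 libraries below 40 spanned 16.1 to 28.7 TPM and the 3 above it 341 to 624 TPM, and PF replicate 4, outside the model and numbered 47, had 303 TPM. Leaving out each library in turn gave 4.14 to 4.61, all with calls, and edgeR gave 4.42 at an adjusted p of 0.061, with 4 calls among 14342 genes (0.0279%). Limma on log2(TPM + 1) called *SLC38A2* alone of the members, beside 0.882% of all genes. PF replicate 4 included, its rank was between 4833 and 6786 of all genes below 40 and between 227 and 591 above it. Its share of the summed TPM of the 9 members was 4.5% to 10.3% below 40 and 42% to 54.3% above it.

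For *SLC1A5* the log2 fold change above over below 40 was 1.92 ± 0.49 (SE, adjusted p = 0.0031 of DESeq2), but the groups overlapped (9.72 to 73.6 TPM below 40 and 58.8 to 103 TPM above it). Without SF replicate 1 it was 1.01 (adjusted p = 0.36 of DESeq2), and with all 7 libraries, where 5.12% of all genes were called, 1.38 (adjusted p = 0.16 of DESeq2). *SLC7A5* did not overlap between the library numbers, with at most 3.68 TPM below 40 and at least 14.9 TPM above it. Of all genes tested, 15.1% had no overlap in this contrast. Its log2 fold change of 3.64 ± 2.13 did not pass (SE, adjusted p = 0.48 of DESeq2). It passed without PF replicate 1, which had no counts (3.22, adjusted p = 6.5e-05 of DESeq2), and with all 7 libraries (3.87, adjusted p = 0.036 of DESeq2). The other members did not pass, among them *SLC38A1* (0.93 ± 0.95), *SLC1A4* (0.68 ± 0.57) and *SLC3A2* (0.51 ± 0.43). Summed over the 8 members other than *SLC38A2*, the level was 206 to 350 TPM below 40 and 342 to 635 TPM above it.

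*SLC38A2*, *SLC7A5* and *SLC3A2* are known targets of the amino acid response, in which a shortage of amino acids or another stress leads to translation of the transcription factor ATF4. A list of 16 genes of that response, chosen with earlier results of these data known, was read in the same fits. Between the stages 1 of the 15 that received an adjusted p (6.67%) was called, beside 19.1% of all genes. This was *SESN2*, an inhibitor of mTORC1 signaling, at 19.6, 28.3, 34.6 and 34.9 TPM in PF and 61.5, 67.6 and 79.6 TPM in SF (log2 fold change 1.41 ± 0.39, SE, adjusted p = 0.0041 of DESeq2). By library number 6 of 16 were called, all higher above 40, beside 4.63% of all genes called and 3.05% called higher. Without PF replicate 3 the count was 3. *ATF4* itself was at 98.4, 147 and 120 TPM in the libraries of *SLC38A2*'s low values (PF replicates 1 and 2 and SF replicate 1) and at 293, 388, 323 and 662 TPM in PF replicates 3 and 4 and SF replicates 2 and 3 (log2 fold change 1.84 ± 0.44, SE, adjusted p = 0.0014 of DESeq2).

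The stress-induced transcription factor *ATF3* went from 0.429 to 29.3 TPM below 40 to 221 to 703 TPM above it, and *PPP1R15A*, which restores translation after stress, from 11 to 60.7 TPM to 191 to 492 TPM. The remaining calls were *DDIT3*, the factor CHOP (1.59 ± 0.31), *DDIT4*, an inhibitor of mTORC1 (1.51 ± 0.37), and *ASNS*, asparagine synthetase (4.82 ± 1.57, adjusted p = 0.047 of DESeq2). *ASNS* had 0, 0 and 9 counts in the 3 libraries below 40, and its call was lost whichever library was left out (adjusted p = 0.09 to 0.71 of DESeq2). The folds of these fits are not given, since without SF replicate 1 the libraries below 40 had no counts of it. Leaving out PF replicate 3 ended the calls of *DDIT3* and *DDIT4* (1.61 and 0.95, adjusted p = 0.07 and 0.41 of DESeq2), and leaving out SF replicate 1 ended that of *ATF4* (1.58, adjusted p = 0.18). *ATF3* and *PPP1R15A* were called in each of these fits. The response genes *TRIB3*, *CHAC1*, *VLDLR* and *EIF4EBP1* were not called (adjusted p = 0.85 to 0.97 of DESeq2). edgeR called 0 of the 16 in this contrast, beside 4 of all 14342 genes (0.0279%). The part of the library number and of these genes in the level of *SLC38A2* was not tested.

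**Figure D3:**
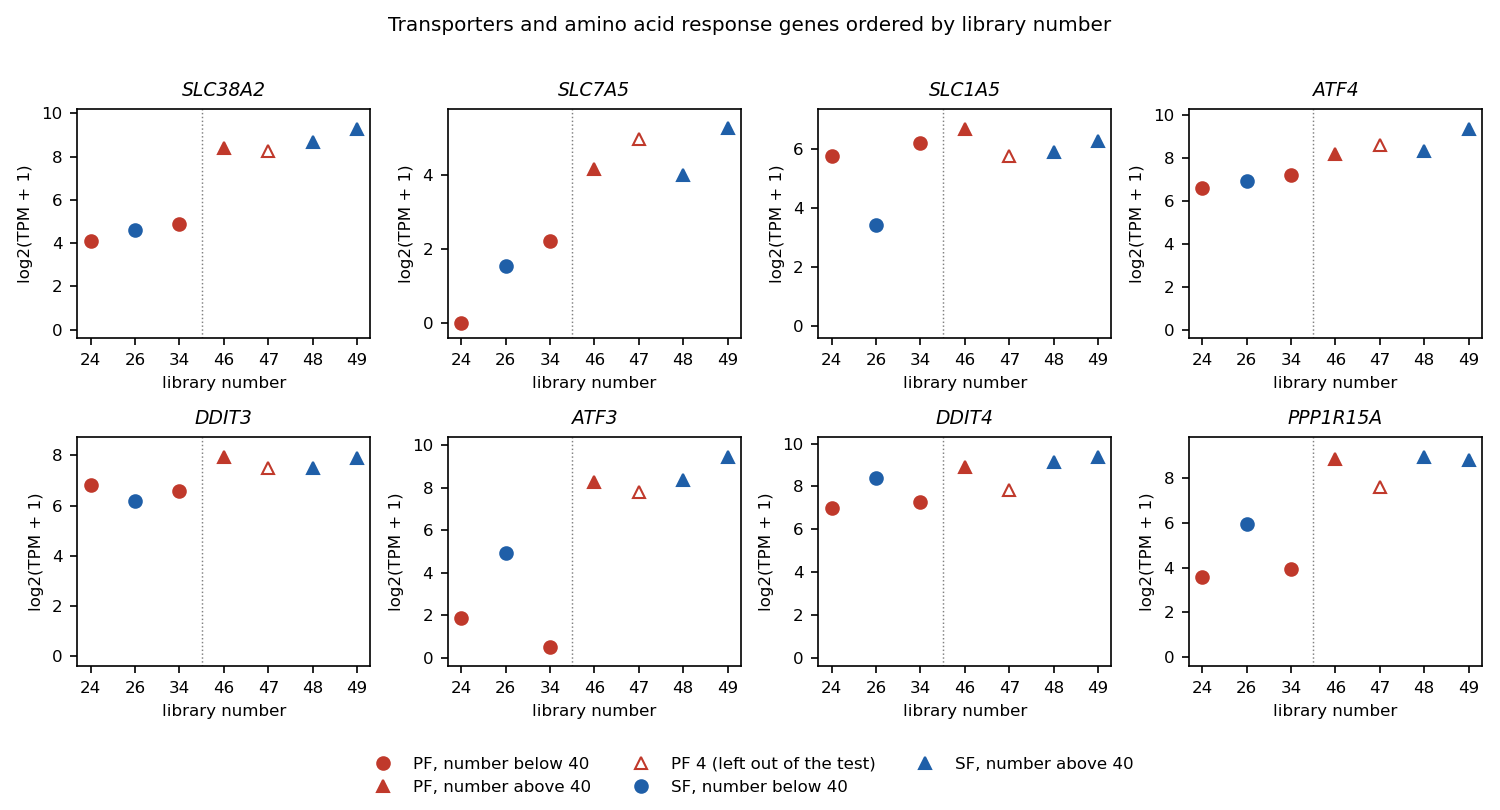
Log2(TPM + 1) of 3 transporters and 5 amino acid response genes in the 7 libraries, ordered by library number, with the dotted line between numbers below and above 40. PF is red and SF blue, and in each panel but those of *SLC1A5* and *DDIT4* every library above 40 exceeds every library below it.

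Profiles close to those of single members were sought among 8129 genes with a mean of 10 TPM or more. The measure was the root-mean-square distance of centred log2(TPM + 1) over the 7 libraries. Genes found in this way share a member's high and low libraries by selection, so the shared patterns are not separate support. For *SLC38A1*, the member with the smallest p between the stages, the nearest were *ERBIN* (0.23), *BNIP2* (0.23), *KAT14* (0.27) and *KATNBL1* (0.31). All 4 were lowest in PF replicate 1, as was *SLC38A1*. The search was repeated for 2 more members after their values were seen. *SLC38A2* was nearest to *ZC3H12A* (0.19), an RNase that degrades inflammatory mRNAs, *TOB1* (0.23), an antiproliferative adaptor, *RNF122* (0.34) and *TUFT1* (0.35). *TOB1* ran from 40.5 to 56.6 TPM below 40 and from 509 to 1573 TPM above it. *SLC1A5* was nearest to *DEPDC7* (0.18), *SLBP* (0.24), the histone mRNA binding protein, *LOC112443325* (0.43) and *BCL3* (0.46), each lowest in SF replicate 1.

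Among 43 other amino acid transporters, 42 were found, 33 received an adjusted p and 8 (24.2%) were called between the stages, beside 19.1% of all genes. Of these 8, 4 were higher and 4 lower in SF. That split was not stable. It was 14 higher and 0 lower when scaled by the oocyte markers, where 56.4% of all genes were called, 99.6% of them higher. Scaled by the granulosa markers it was 1 higher and 18 lower, where 49.5% of all genes were called, 1.24% of them higher. Without SF replicate 2 or without SF replicate 3 it was 1 higher and 6 lower, beside 34.7% and 38.2% higher among all genes called. *SLC7A11*, the cystine and glutamate exchanger xCT and a partner of *SLC3A2*, was at 1.82, 0.827, 0.435 and 0.974 TPM in PF replicates 1 to 4 and at 6.07, 8.57 and 10.1 TPM in SF replicates 1 to 3 (log2 fold change 3.20 ± 0.54, SE, adjusted p = 6.6e-07 of DESeq2). Its stages did not overlap, PF replicate 4 included. Also higher were *SLC1A3*, the glutamate carrier EAAT1 (5.24 ± 1.54), the lysosomal exporter of cationic amino acids *SLC66A1* (4.22 ± 1.41) and *SLC6A19*, the neutral amino acid carrier B0AT1 (3.54 ± 1.20), each at most 13.9 TPM in any library. These 3 calls did not hold in every fit that left out 1 library. Those of *SLC1A3* and *SLC6A19* ended without any 1 of the 3 SF libraries (adjusted p = 0.072 to 0.091 and 0.075 to 0.13 of DESeq2). Their log2 fold changes in these fits stayed at 5.17 to 5.27 and at 3.25 to 3.72. The call of *SLC66A1* ended without PF replicate 2, SF replicate 2 or SF replicate 3 (0.094 to 0.19).

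*SLC38A8* was the most abundant of the 4 called lower, at 80.1, 59.3, 64.5 and 6.01 TPM in PF replicates 1 to 4 and 16.7, 23.9 and 3.45 TPM in SF replicates 1 to 3 (log2 fold change -2.16 ± 0.64, SE, adjusted p = 0.0075 of DESeq2). With *SLC38A1*, *SLC38A2* and *SLC38A3* it belongs to the SLC38 family, of which it held 45.5%, 39.9% and 14.5% of the summed TPM in PF replicates 1 to 3 and 17.4%, 4.78% and 0.5% in SF. *SLC6A20*, a carrier of proline and glycine (-2.57 ± 0.57), *SLC16A10*, the aromatic amino acid carrier TAT1 (-1.89 ± 0.54), and *CTNS*, the lysosomal cystine exporter (-1.84 ± 0.47), were also lower in SF. None of these 4 calls held when scaled by the oocyte markers, where *SLC38A8* was at -0.21 and *SLC6A20* at -0.17 (adjusted p = 0.84 and 0.88 of DESeq2) and *SLC16A10* and *CTNS* were above 0 (0.86 and 1.04). The call of *SLC16A10* also ended without PF replicate 2 (-1.53, adjusted p = 0.056 of DESeq2). The oocyte score was lower in SF in the same libraries (2.74 to 5.04 against 5.75 to 6.82) and the granulosa score higher (5.24 to 5.68 against 3.89 to 4.54), and the part of either in these changes was not tested. *SLC15A4* and *SLC38A10*, the other abundant ones, averaged 47.4 and 34 TPM over the 7 libraries and were not called (0.05 ± 0.34 and 0.77 ± 0.32). With PF replicate 4 kept, where 5.82% of all genes and 0 members were called, 2 of the 8 calls were made (*SLC7A11* and *CTNS*). edgeR made 0 of them, but it called 0 of all 14342 genes between the stages. At an unadjusted p below 0.05 it had 9 of 31 other transporters, beside 3845 of the 14342 genes. By library number, 1 of 41 (2.44%) was called, beside 4.63% of all genes. This was the cationic amino acid carrier *SLC7A2* (1.29 ± 0.41, SE, adjusted p = 0.035 of DESeq2), whose call was lost in 11 of 15 alternatives, among them the omission of any 1 library but SF replicate 3 (0.89 to 1.73, adjusted p = 0.055 to 0.8 of DESeq2).

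**Figure D4:**
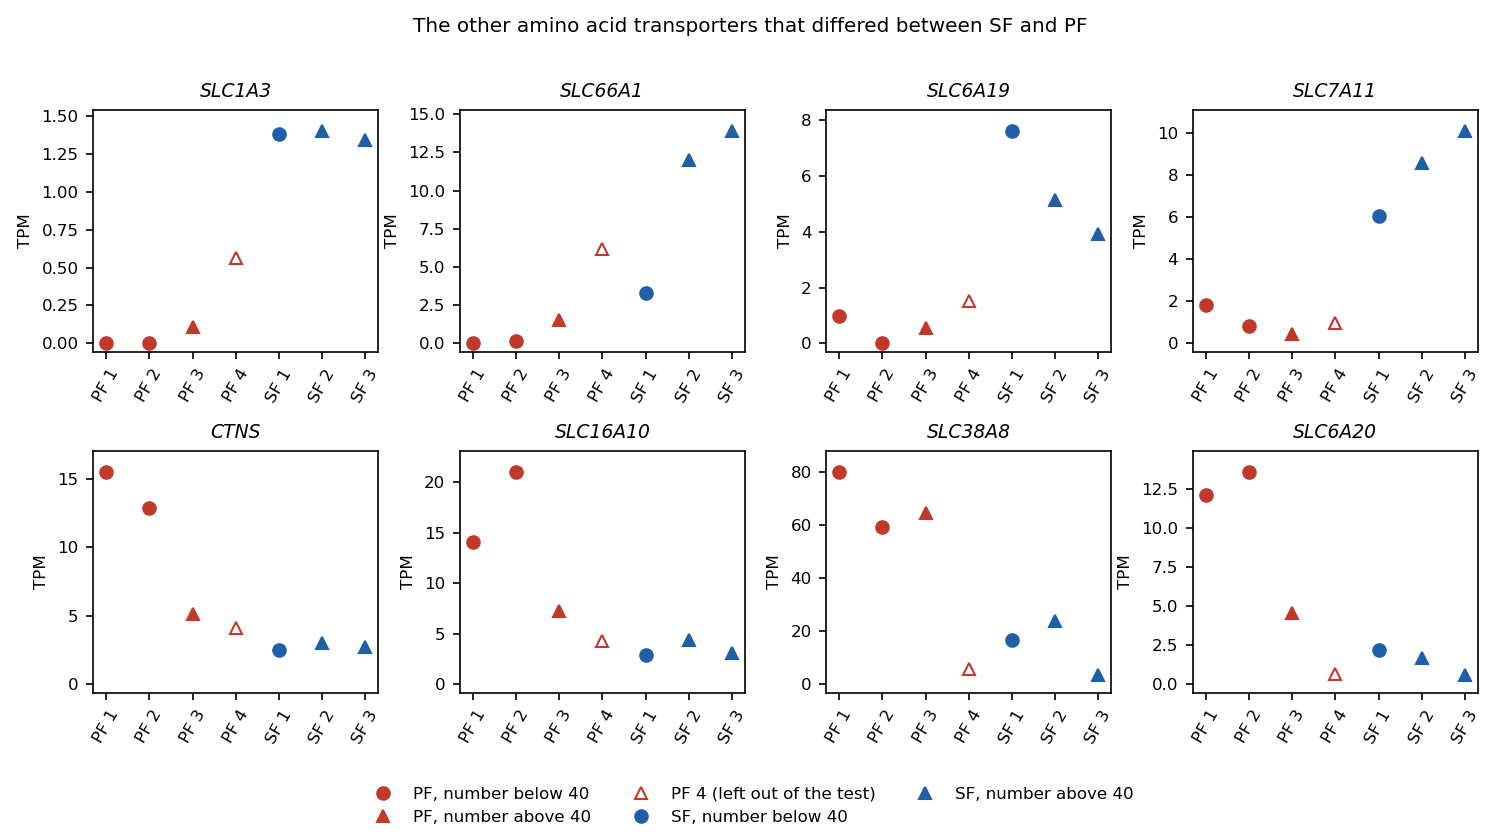
TPM of the 8 other amino acid transporters called between the stages, in the 4 PF (red) and 3 SF (blue) libraries, with PF replicate 4 as an open triangle. The 4 upper genes are higher and the 4 lower genes lower in SF, and PF replicate 4 lies among the SF values of *SLC66A1* (6.16 TPM), *SLC16A10* (4.25 TPM), *SLC38A8* (6.01 TPM) and *SLC6A20* (0.7 TPM).

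The scale on which the stages were compared set the direction of several members. Scaled by the oocyte markers, the median log2 fold change of all genes moved from 0.02 to 2.69, and 8744 genes (56.4%) were called, 99.6% of them higher in SF, against 42.6% higher among the 2876. *SLC38A1* (4.44), *SLC38A2* (4.34) and *SLC6A9* (4.65) were then called higher. Scaled by the granulosa markers, the median was -1.52 and 7801 genes (49.5%) were called, 1.24% of them higher. *SLC1A5* (-2.23), *SLC1A4* (-1.47) and *SLC3A2* (-1.16) were then called lower.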

How the data were processed

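RNA sequencing data of 4 PF and 3 SF libraries were used, grouped by the sample titles. The study made cDNA by SMART-Seq v4, a chemistry without strand information, and trimmed paired reads were quantified with Salmon against the bovine transcriptome of ARS-UCD1.3. Trim Galore and Salmon are the tools in the submitters' processing notes. Per the file headers, the authors deposited for each RefSeq transcript an estimated count, a TPM and an effective length. Of 76123 transcripts, 50205 (66%) were matched by accession, without its version, to 23704 genes of a RefSeq table of ARS-UCD2.0, which served for names alone, so no coordinates are given. The unmatched transcripts took up 9.71% to 10.7% of each library's counts and were set aside, so that a level can be incomplete. Estimated counts and TPM were summed per gene, and the counts were rounded.

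Without PF replicate 4, which the study also removed, SF was compared with PF with DESeq2 1.42.0 (Wald test, R 4.3.3) across all genes, with median-of-ratios size factors, independent filtering and Benjamini-Hochberg adjustment. A gene was called at an adjusted p below 0.05. The library number, split at 40, was read in a DESeq2 model with the stage. Alternatives were edgeR 4.0.16 (quasi-likelihood), limma 3.58.1 on log2(TPM + 1), or with 0.1 in place of 1, over genes that reached 1 TPM in 3 libraries, TMM factors, an offset for transcript length, size factors of the oocyte or the granulosa markers, a minimum of 10 counts in 3 libraries, no independent filtering, all 7 libraries, the library number as a covariate, the replicate number as a block, adjusted p below 0.01 and fits that omit 1 library each. The contrast of library numbers with its alternatives, all 7 libraries with that covariate, and that covariate with each library left out were chosen after seeing the data. The tests were checked on simulated data. No 2 libraries of a group were duplicates.

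The members and gene lists were chosen with earlier results of these data known. Named were all 9 members, the other transporters called and the 3 most abundant of them, the response genes called and *ATF4*, and the 4 profiles nearest to the member with the smallest p. Genes named for the library number, and the profiles near *SLC38A2* and *SLC1A5*, were chosen after their values were seen. A 0 was given the limit that 3 counts set, which covers counting error only, since reads carried no molecular identifiers. Sequences were not used here.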

Additional observations from a re-analysis of the deposited data

Results flagged for a closer look

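*SLC7A6* in PF replicate 3, at 0.658 TPM (62 counts), stood apart from the other PF libraries, which were all at 0, so that its distance to the nearest of them made up the whole range of the 4. SF replicate 2 was at 0.88 TPM. That is so for any gene read in 1 of the 4 PF libraries alone. The rule, applied to 27 named genes, marks about 1 in 20 groups by chance if values are normally distributed. Values at 0 are not, so that rate does not hold for this gene.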

How the results depend on the processing

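Of the 9 members, 0 were called between SF and PF with edgeR, limma, TMM factors, the length offset, the count minimum, no independent filtering, all 7 libraries and adjusted p below 0.01. The count was 3 with either marker-based scale, 1 with the library number as a covariate and 0 to 2 with a library left out, with or without that covariate. The log2 fold changes under the granulosa scale were -0.16 for *SLC38A1*, -0.27 for *SLC38A2*, -0.34 for *SLC7A5*, -1.16 for *SLC3A2*, -1.47 for *SLC1A4*, -1.39 for *SLC15A4*, -0.73 for *SLC38A10*, -0.17 for *SESN2* and -0.56 for *ATF4*, and under the oocyte scale they were 2.47 for *SLC1A5*, 0.86 for *SLC16A10* and 1.04 for *CTNS*, all opposite in sign to the values reported. *SLC1A4* was also below 0 in limma (-0.18 and, with the smaller pseudocount, -0.21), with all 7 libraries (-0.02), with the library number as a covariate (-0.27) and with both (-0.23), and *SLC15A4* in limma (-0.04 with either pseudocount). With a library left out, the stage values ran from -0.03 to 3.51 for *SLC7A5*, -0.34 to 0.7 for *SLC3A2*, -1.06 to 0.48 for *SLC1A4* and -0.1 to 0.3 for *SLC15A4*. Of all genes, 0 were called between the stages by edgeR (3845 at an unadjusted p below 0.05), 3 and 60 by limma with the larger and the smaller pseudocount, 8744 with the oocyte scale, 7801 with the granulosa scale, 858 with all 7 libraries, 1071 with these and the library number, 1590 at adjusted p below 0.01 and 837 to 3947 with a library left out. For the other transporters these counts were 0, 0 and 1, 14, 19, 2 and 1, and 1 to 10 with a library left out. For the response genes they were 0 by edgeR and limma with either pseudocount, 12 and 2 with the oocyte and the granulosa scale, and 1 to 5 with a library left out. By library number, the counts of all genes, members, other transporters and response genes were 4, 0, 0 and 0 by edgeR, 116, 1, 0 and 2 by limma, and 52, 1, 0 and 0 by limma with the smaller pseudocount. With the oocyte scale 475 genes, 1 member and 3 response genes were called, with the granulosa scale and at adjusted p below 0.01 0 of the other transporters, and with all 7 libraries 2 of them. Leaving out a library gave 352 to 1078 genes, 1 to 3 members, 0 to 1 other transporters and 3 to 6 response genes. The log2 fold changes then ran from -2.37 to 0.22 for *SLC38A3*, -1.43 to 7.36 for *SLC6A9* and -0.08 to 1.47 for *SLC1A4*. The numbers of the replicates do not mark shared animals in the labels, and the deviations of same-numbered libraries correlated at 0.12, 0.00 and 0.21, so they were not taken as pairs. With the replicate block, 4077 genes were called, with 3 members (*SLC38A1*, *SLC38A2* and *SLC6A9*), 13 other transporters and 5 response genes, and *SLC1A4* was at -0.11. PF replicates 1 and 3 correlated best with the SF library of their number, and PF replicate 2 with SF replicate 1. No library held more than 14 counts of *SLC38A3*, 80 of *SLC7A6* or 86 of *SLC6A9*, which limits the precision of their values. The cause of these changes with the setting was not tested.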
